A study of Mus musculus with 8 samples.

Results

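The acute phase and antimicrobial secreted proteins described here are the products of 8 genes, Saa1, Saa2, Saa3, Hp, Lcn2, Slpi, Camp and Cp, out of 12160 genes measured in immortalized mouse pancreatic stellate cells (PSCs). They were chosen by gene symbol with their differences between the media already known, so the members' own values are a description and carry no p-values. All 8 were found in the count table and all 8 passed the filter on low counts (at least 10 counts over the samples fitted) in each of the 3 comparisons.

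Acute phase proteins are secreted in large amounts when tissue is injured or infected, mostly by the liver but also by activated fibroblasts and epithelia. Their genes are switched on by cytokines of the interleukin 6 and interleukin 1 families, through the transcription factors C/EBP, STAT3 and NF-kB. Several of them act on microbes directly, by withholding iron or by damaging membranes, and in the pancreas stellate cells, the precursors of many cancer-associated fibroblasts, are one of the sources of such inflammatory secreted proteins.

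PSCs of 1 immortalized line grew in 3D Matrigel for 4 days before their medium was exchanged for a test medium for 4 more days, and their RNA was sequenced from the 3′ end with a bulk form of MARS-seq. The samples fall into 3 groups. PSCs in 3 samples received medium conditioned by KPC pancreatic cancer organoids transduced with shRNA against Brca2 (shBrca2-CM), PSCs in 3 samples received medium conditioned by KPC organoids with a non-targeting shRNA (shControl-CM), and PSCs in 2 samples served as controls. The control medium is DMEM in the sample titles and growth medium in the study's account of the RNA-seq, whereas the recorded treatment and the study's 3D culture method give the PSCs' own conditioned medium; it is called growth medium here. The shRNAs were carried by the organoids and not by the PSCs, so these libraries hold no check of the knockdown. Per the study's methods, organoid medium was conditioned in DMEM with less serum than the PSC growth medium, so that serum and conditioning cannot be told apart in the comparisons against growth medium. The samples are called independent domes in the study and their labels do not say more, so p-values given below measure the spread between these domes.

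Total counts were 655996 to 1095534 in the shBrca2-CM libraries, 1093609 to 1624392 in the shControl-CM libraries and 4623846 to 5476988 in the growth medium libraries, so the group in which several members are lowest between the conditioned media was also the shallowest. All 11 fibroblast and stellate cell markers looked for were in the table, with a summed level of 3242 to 3408 CPM (counts scaled for library size) in shBrca2-CM, 4219 to 4763 CPM in shControl-CM and 5453 to 6519 CPM in growth medium. These sums hold markers that moved in opposite directions. In shControl-CM against growth medium 4 of the 11 were called higher, Dcn by 4.50 and Pdpn by 3.12 among them, and 4 lower, Vim by -3.38 and Col1a2 by -2.48 among them. Between the conditioned media Dcn (-0.93), Pdpn (-1.07) and Lum (-1.59) were called lower and Pdgfra (0.85) higher in shBrca2-CM. Of the markers of other cell types, 3 of 10 epithelial genes were in the table (59.3 to 94.1, 57.7 to 70.6 and 37.0 to 41.7 CPM in the same order of groups) and 4 of 10 leukocyte genes (27.5 to 50.6, 58.3 to 83.1 and 19.1 to 22.9 CPM). Of 6 acinar genes 1 was in the table (54.8 to 83.9, 59.9 to 63.4 and 45.8 to 49.7 CPM), as were 3 of 5 endothelial genes, which were at or under 3 counts in every conditioned medium library, and none of the 8 hepatocyte markers looked for (Alb, Ttr, Apoa1, Apob, Serpina1b, Cyp2e1, Tf and Trf) was among the genes analysed here. Of the epithelial genes, Krt18 and Muc1 were called higher in both conditioned media than in growth medium (2.43 and 1.97 in shControl-CM, 2.66 and 2.08 in shBrca2-CM) and not between the conditioned media. The keratin gene Krt19 was called higher in shBrca2-CM than in shControl-CM (2.12, adjusted p = 0.0632, edgeR) and lower in both than in growth medium, on 3 to 15 counts in each conditioned medium library. The leukocyte genes in the table were Cd68, Csf1r, Lyz2 and Cd74, while Ptprc and the neutrophil genes Ly6g and Mpo were not among the genes analysed here. The leukocyte sum moved in the same order as most members, and none of its 4 genes was called between the conditioned media (adjusted p = 0.122 to 0.915, edgeR), while against growth medium 3 were called higher in shControl-CM and 2 in shBrca2-CM. Its part in the members' levels was not tested, and in bulk RNA fewer cells of a type and less RNA per cell cannot be told apart.

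Saa1, Saa2 and Saa3 encode serum amyloid A proteins, small apolipoproteins of the acute phase, and lie in 1 cluster on chromosome 7 (GRCm38.p6). Saa3 occupies chr7:46711998-46719615, Saa1 chr7:46740497-46743181 and Saa2 chr7:46751833-46754313, with the related gene Saa4 between Saa3 and Saa1. The promoter windows of the members, 250 bases before to 50 bases after the annotated transcription start, are shown because these genes were high or low together across the media, and they were searched for 3 motifs of the acute phase factors named above. The motif TTGCNNAA stands for C/EBP, GGNNTTTCC for NF-kB and TTCNNNGAA for STAT, each searched on both strands, and no matches overlapped. Sequences are from RefSeq (GRCm38.p6), and 7 of the 8 members had an entry. For Saa3 and Cp the starts of these entries lie inside the gene spans given here, not at their outer ends. The 3 Saa windows, with matches in capitals, are the following, at chr7:46715627-46715926, minus strand for Saa3, chr7:46742931-46743230, minus strand for Saa1 and chr7:46751583-46751882, plus strand for Saa2.
Saa3: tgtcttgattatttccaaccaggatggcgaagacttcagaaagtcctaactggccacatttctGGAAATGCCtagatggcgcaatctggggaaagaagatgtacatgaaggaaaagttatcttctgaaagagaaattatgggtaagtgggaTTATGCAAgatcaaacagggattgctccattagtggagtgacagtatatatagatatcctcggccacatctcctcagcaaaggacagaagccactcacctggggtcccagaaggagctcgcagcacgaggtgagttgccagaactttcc
Saa1: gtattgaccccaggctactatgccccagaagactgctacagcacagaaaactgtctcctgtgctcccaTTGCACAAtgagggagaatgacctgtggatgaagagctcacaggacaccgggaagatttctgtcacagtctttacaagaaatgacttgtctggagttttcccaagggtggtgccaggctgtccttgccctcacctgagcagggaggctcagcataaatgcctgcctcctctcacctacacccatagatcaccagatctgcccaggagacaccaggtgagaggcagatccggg
Saa2: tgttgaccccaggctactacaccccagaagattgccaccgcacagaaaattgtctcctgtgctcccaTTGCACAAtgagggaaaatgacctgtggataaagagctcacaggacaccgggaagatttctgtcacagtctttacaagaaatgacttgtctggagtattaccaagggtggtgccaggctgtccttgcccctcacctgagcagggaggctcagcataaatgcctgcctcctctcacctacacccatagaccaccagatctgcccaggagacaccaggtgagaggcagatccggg

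In the Saa3 window the first capitals, 187 to 179 bases before the start, match the NF-kB motif on the opposite strand and the second, 99 to 92 bases before it, the C/EBP motif on the opposite strand. In Saa1 the C/EBP match lies 182 to 175 bases before the start and in Saa2 183 to 176 bases before it, with the same 8 letters. The windows of Saa1 and Saa2 were identical at 95.7% of positions, with a longest shared run of 65 bases, whereas the longest run that either shared with Saa3 was 8 bases. Lcn2 (chr2:32387690-32387989, minus strand) and Slpi (chr2:164356458-164356757, minus strand) are shown because each also held a single C/EBP match, in Lcn2 216 to 209 bases before the start and in Slpi, on the opposite strand, 241 to 234 bases before it.
Lcn2: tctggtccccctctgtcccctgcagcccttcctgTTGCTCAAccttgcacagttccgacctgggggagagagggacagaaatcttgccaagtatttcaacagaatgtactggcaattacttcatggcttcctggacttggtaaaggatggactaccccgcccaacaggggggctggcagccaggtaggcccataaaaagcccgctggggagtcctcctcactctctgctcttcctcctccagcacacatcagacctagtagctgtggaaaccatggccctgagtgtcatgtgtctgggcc
Slpi: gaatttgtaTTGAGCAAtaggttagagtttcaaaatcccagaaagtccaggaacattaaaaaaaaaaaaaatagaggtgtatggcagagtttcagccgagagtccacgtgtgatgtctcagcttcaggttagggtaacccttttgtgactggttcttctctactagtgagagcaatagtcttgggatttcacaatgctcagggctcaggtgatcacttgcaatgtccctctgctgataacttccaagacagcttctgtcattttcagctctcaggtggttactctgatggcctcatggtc

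Cp has 2 starts among these entries. The window of the second (chr3:19956999-19957298, plus strand), shown as that of the member whose pattern differed most from the others, held an NF-kB match 146 to 138 bases before the start and a C/EBP match on the opposite strand 70 to 63 bases before it. The window of its first start and that of Camp held none of the 3 motifs.
Cp: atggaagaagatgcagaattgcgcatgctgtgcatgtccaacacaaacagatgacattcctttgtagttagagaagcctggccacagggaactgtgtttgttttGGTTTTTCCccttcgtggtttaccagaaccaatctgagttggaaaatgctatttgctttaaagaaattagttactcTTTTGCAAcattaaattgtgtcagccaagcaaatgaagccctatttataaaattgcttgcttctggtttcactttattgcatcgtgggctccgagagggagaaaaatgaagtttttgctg

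Counted by window, a C/EBP match was found in 6 of the 8 windows of these members, where 10.8% of the 32851 mouse promoter windows of the same length held one. The near-identical windows of Saa1 and Saa2 hold the same match and are not separate cases, and the windows of Cp overlap. An NF-kB match was found in 2 of the 8 windows, where 5.82% of all windows held one. No member window held the STAT motif, which was found in 8.3% of all windows. These are matches of fixed letters in a short window. Sites that depart from these letters were not counted, and no binding was measured.

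**Figure D1:**
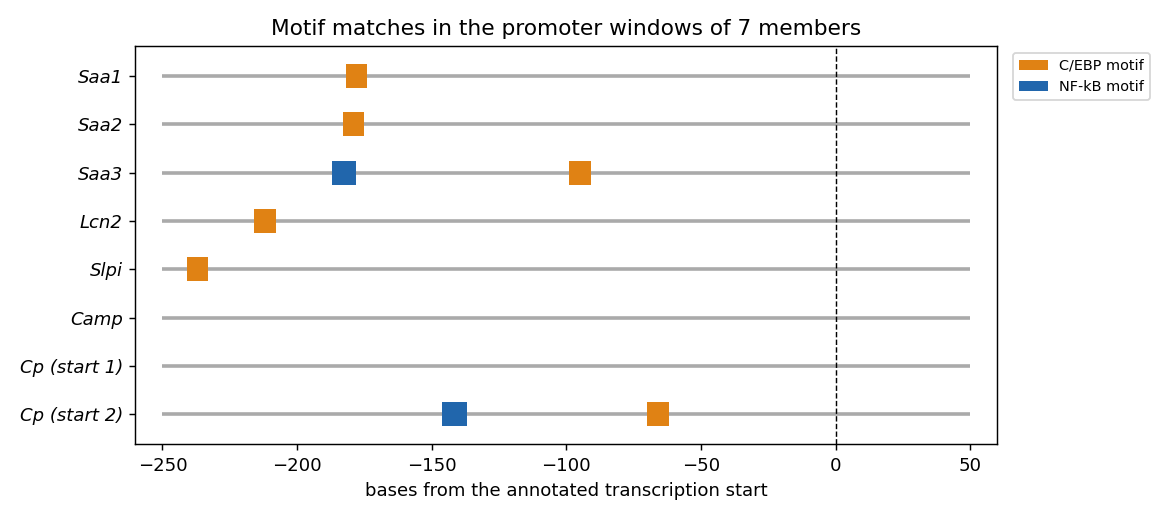
Position of each motif match (boxes) in the 300-base promoter windows of 7 members, in bases from the annotated transcription start (dashed line). Saa1, Saa2, Saa3, Lcn2, Slpi and the second start of Cp hold a C/EBP match, Saa3 and the second start of Cp an NF-kB match, and Camp and the first start of Cp none.

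Saa3 was the member with the most reads. Its level was 33735, 34611 and 39981 CPM in the 3 shControl-CM samples, 9594, 9080 and 11806 CPM in the 3 shBrca2-CM samples, and 172 and 158 CPM in growth medium. Every shControl-CM value was above every shBrca2-CM value, and these were all far above growth medium. By mean reads Saa3 ranked 1 of the 12160 genes in shControl-CM, 2 in shBrca2-CM and 1227 in growth medium. Its log2 fold change was -1.80 (SE 0.14) in shBrca2-CM against shControl-CM, 7.77 (SE 0.25) in shControl-CM against growth medium and 5.95 (SE 0.17) in shBrca2-CM against growth medium.

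Saa1, which encodes a circulating form of serum amyloid A, was read at 98.7, 126 and 128 CPM in shControl-CM and at 14.5, 11.2 and 16.0 CPM in shBrca2-CM. The groups did not overlap, and the log2 fold change of -3.02 (SE 0.22) between the conditioned media was the most negative among the members, ranking 16 from the lowest of 11035 genes tested. In growth medium Saa1 had 2 counts in 1 library and 0 in the other, where 3 counts correspond to 0.521 and 0.645 CPM. By the ratio of summed counts per library size it was 604 times as high in shControl-CM as in growth medium (95% counting interval 166 to 4999) and 73.4 times as high in shBrca2-CM (18.9 to 629). These intervals cover counting error only.

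Saa2, the other circulating form, had 19, 22 and 35 counts in shControl-CM (12.2, 21.3 and 23.8 CPM), 1, 1 and 8 counts in shBrca2-CM (1.45, 1.24 and 7.10 CPM) and 1 and 0 counts in growth medium. The third shBrca2-CM sample stood above the others of its group, though still below all shControl-CM samples. Its log2 fold change from shControl-CM to shBrca2-CM was -2.29 (SE 0.54), the largest error of any member there, and ranged from -3.68 to -1.94 over 16 alternatives. The call was lost in 5 of these 16, among them the leaving out of shBrca2-CM replicate 1 or 2 or of shControl-CM replicate 2. Against growth medium the ratios were 194 (33.9 to 7778) in shControl-CM and 39.7 (5.65 to 1723) in shBrca2-CM. The last 300 bases of the annotated Saa1 and Saa2 transcripts were identical at 91.7% of positions, with a longest shared run of 73 bases, so that 3′ reads could be split between them and their separate levels are uncertain. The longest run that Saa1 and Saa3 shared there was 17 bases.

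Hp encodes haptoglobin, which binds free haemoglobin and so withholds its iron (chr8:109575128-109579172). Its level was 17087, 18899 and 18445 CPM in shControl-CM, 3456, 2799 and 4140 CPM in shBrca2-CM, against 83.6 and 58.5 CPM in growth medium. The 3 groups were apart from each other by more than the spread within any of them. By mean reads Hp ranked 2 of all genes in shControl-CM, 15 in shBrca2-CM and 2832 in growth medium. The log2 fold changes were -2.36 (SE 0.15) between the conditioned media, 7.99 (SE 0.27) in shControl-CM against growth medium and 5.61 (SE 0.19) in shBrca2-CM against growth medium.

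Cp encodes ceruloplasmin, a copper-carrying ferroxidase (chr3:19956933-20009750), and its pattern was another. Cp was read at 79.4, 110 and 114.8 CPM in shControl-CM, at 146, 116 and 115.4 CPM in shBrca2-CM, and at 30.4 and 17.6 CPM in growth medium. The conditioned media nearly met, with the lowest shBrca2-CM value just above the highest shControl-CM value, and growth medium lay below both. Its log2 fold change from shControl-CM to shBrca2-CM was 0.33 (SE 0.18), ranging from 0.15 to 0.45 over the alternatives, and it did not meet the call rule, which does not show that the level was the same. Against growth medium it was 2.06 (SE 0.27) in shControl-CM and 2.36 (SE 0.19) in shBrca2-CM.

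Lcn2, Slpi and Camp encode secreted proteins that act against microbes. Lipocalin 2, the product of Lcn2 (chr2:32384637-32387739), binds bacterial siderophores and so keeps iron from bacteria. Lcn2 was read at 3420, 3673 and 3472 CPM in shControl-CM, 502, 580 and 744 CPM in shBrca2-CM, against 7.13 and 6.66 CPM in growth medium. The shControl-CM samples were the closest to each other of any member (coefficient of variation 3.79%), and no groups overlapped. The log2 fold changes were -2.50 (SE 0.15) between the conditioned media, 8.98 (SE 0.23) in shControl-CM against growth medium and 6.46 (SE 0.21) in shBrca2-CM against growth medium. Lcn2 ranked 14 of all genes by mean reads in shControl-CM, 209 in shBrca2-CM and 8678 in growth medium.

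Slpi encodes secretory leukocyte peptidase inhibitor, which blocks neutrophil elastase and also kills bacteria (chr2:164354070-164356507). Its level was 283, 365 and 395 CPM in shControl-CM, 89.7, 64.7 and 93.2 CPM in shBrca2-CM, against 14.4 and 9.67 CPM in growth medium. The groups stood in the same order as for Saa3 and did not overlap. The log2 fold changes were -2.04 (SE 0.18) between the conditioned media, 4.82 (SE 0.26) in shControl-CM against growth medium and 2.76 (SE 0.22) in shBrca2-CM against growth medium.

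Camp encodes cathelicidin, the precursor of a membrane-disrupting peptide (chr9:109847377-109849456). It had few reads, with 53, 47 and 82 counts in shControl-CM (34.0, 45.4 and 55.7 CPM), 4, 4 and 9 counts in shBrca2-CM (5.79, 4.98 and 7.99 CPM) and 37 and 9 counts in growth medium (6.43 and 1.93 CPM). The shControl-CM samples were above the others, while the shBrca2-CM and growth medium samples overlapped. The log2 fold change was -2.76 (SE 0.33) between the conditioned media, 3.36 (SE 0.44) in shControl-CM against growth medium and 0.57 (SE 0.50) in shBrca2-CM against growth medium. The last value was not called. Without growth medium replicate 1 it was 1.71 and called, so it turned on a single library.

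**Figure D2:**
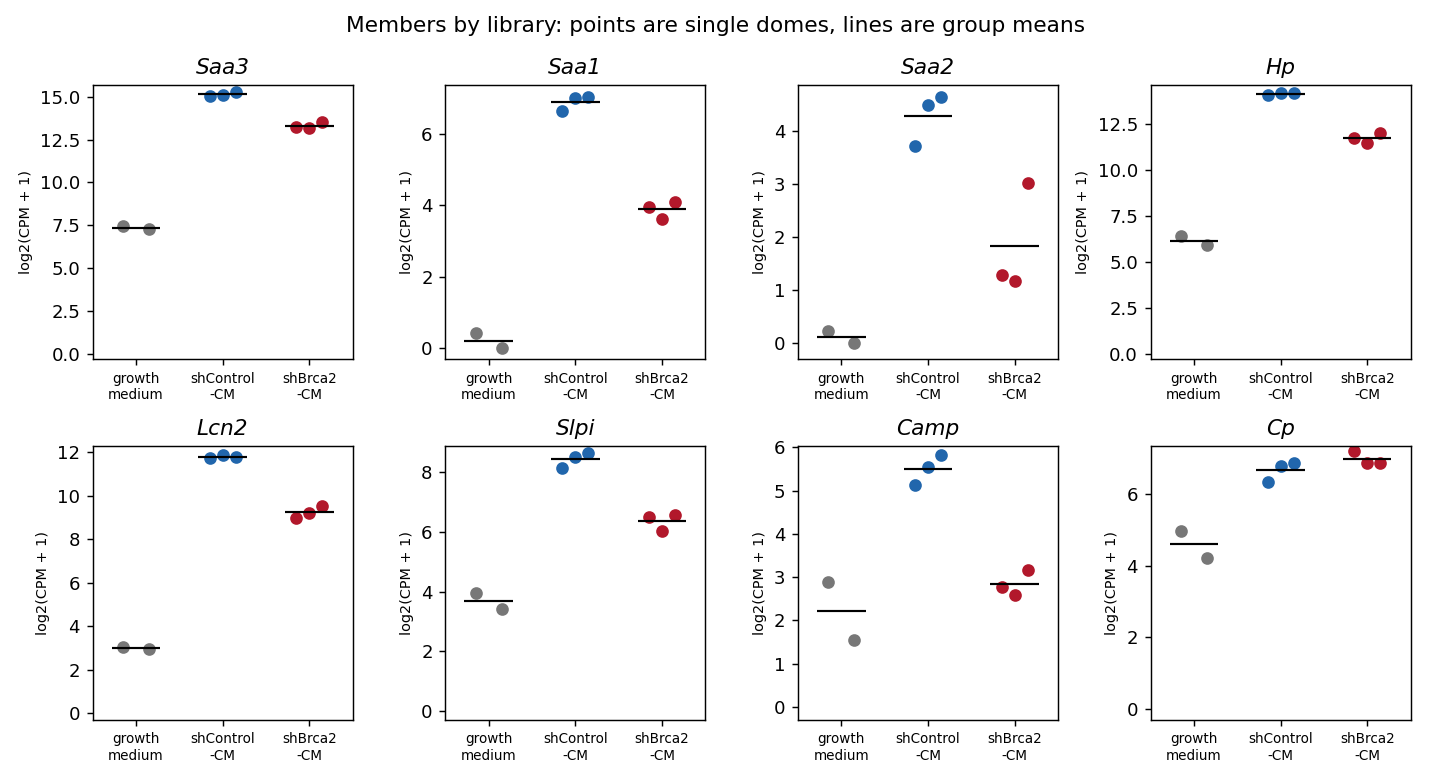
Level of each member in every library as log2(CPM + 1), with 1 point per dome and a line at the mean of the log2 values of the group (2 growth medium, 3 shControl-CM and 3 shBrca2-CM samples). In all panels but that of Cp the shControl-CM samples lie above the shBrca2-CM samples, and only for Camp do shBrca2-CM and growth medium samples overlap.

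Counted together, the 8 members took 5.37%, 5.47% and 5.68% of all counts in the shControl-CM libraries, 1.46%, 1.31% and 1.74% in the shBrca2-CM libraries, and 0.0330% and 0.0253% in the growth medium libraries. Saa3 alone accounted for 3.28% to 3.62% and Hp for 1.67% to 1.79% of the counts in shControl-CM. Scaling by total counts, in which these shares count in full, in place of trimmed means (TMM) moved the median log2 fold change over all genes from 0.03 to 0.14 between the conditioned media and from -0.10 to -0.21 in shControl-CM against growth medium. With that scaling 250 genes were called higher and 120 lower between the conditioned media, against 174 and 171 with TMM. No member changed its direction.

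**Figure D3:**
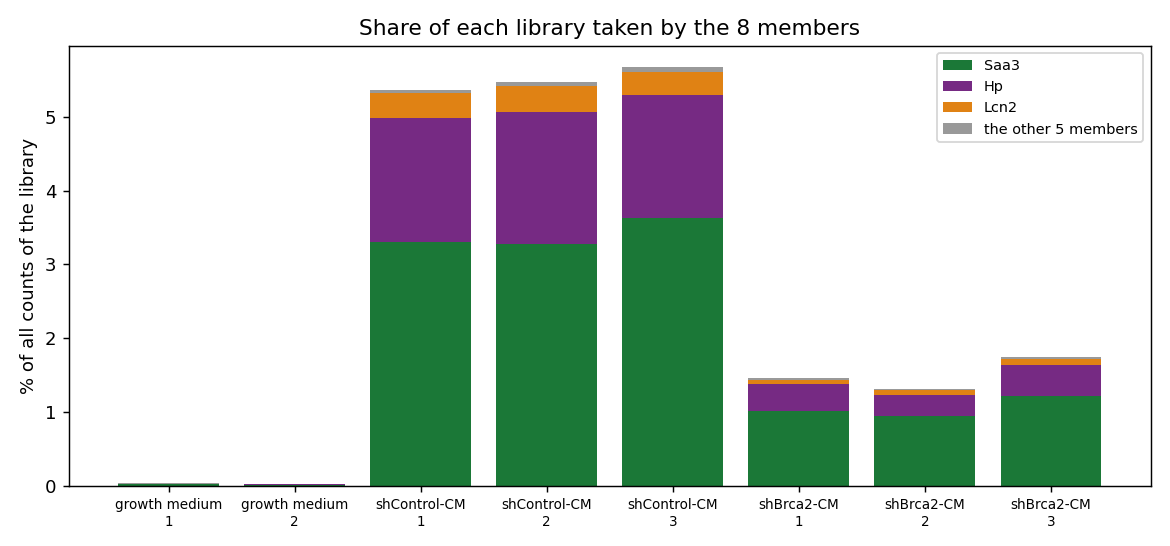
Share of all counts of each library, in percent, taken by Saa3, Hp, Lcn2 and the other 5 members, stacked from 0. The stacks reach 5.37% to 5.68% in shControl-CM, 1.31% to 1.74% in shBrca2-CM and at most 0.0330% in growth medium.

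Between the conditioned media, 7 of the 8 members were called lower in shBrca2-CM and none higher. A gene was called when edgeR's quasi-likelihood test gave a Benjamini-Hochberg adjusted p-value under 0.1, where the log2 fold change exceeded 0.5 in size and the mean normalised count exceeded 5. Over all genes tested, 1.55% were called lower and 1.58% higher. The 3 shBrca2-CM values lay below the 3 shControl-CM values for these same 7 members, as they did for 10.6% of all genes. The median log2 fold change was -2.33 over the members and 0.03 over all genes. Since the members were selected on this difference, nothing is read from these counts. With all libraries thinned to the smallest total, the same members but Saa2 were called lower. In level relative to shControl-CM, the shBrca2-CM means were 11.8% for Saa1, 13.9% for Camp, 17.1% for Saa2, 17.3% for Lcn2, 19.1% for Hp, 23.8% for Slpi, 28.1% for Saa3 and 124% for Cp.

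With shControl-CM against growth medium, all 8 members were called higher, where 18.2% of all genes were called higher and 18.9% lower. With shBrca2-CM against growth medium, 6 of 8 were called higher, where 18.6% of all genes were called higher and 19.2% lower. Camp was not called there and Saa2 missed the minimum mean count, at 3.50. The members' median log2 fold change was 7.43 in shControl-CM (6.20 with Saa1 and Saa2 set at the bound that 3 counts in a growth medium library allow) and 5.17 in shBrca2-CM (3.60 at the bounds), while over all genes it was -0.10 and -0.05. These comparisons share the growth medium samples. Lcn2 ranked 2 and 3 from the highest of all genes in them, Saa3 6 and 5, Hp 5 and 8, Slpi 31 and 116, Cp 344 and 185, and Camp 113 and 2700, the lowest rank of any member.

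**Figure D4:**
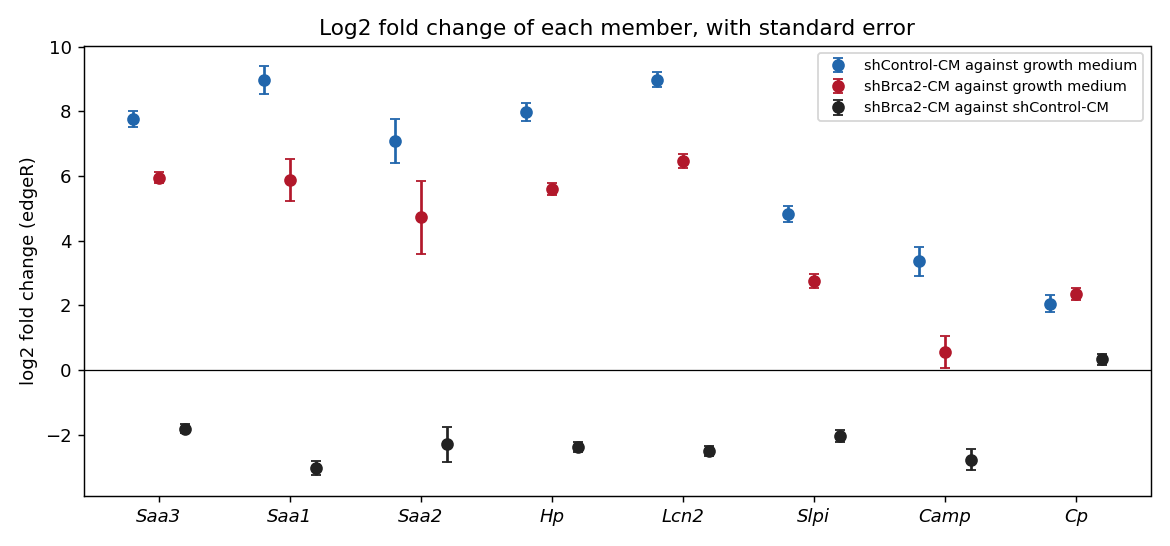
Log2 fold change of each member in the 3 comparisons, with bars of 1 standard error from edgeR. All members but Cp lie below 0 in shBrca2-CM against shControl-CM (-3.02 to -1.80, Cp 0.33), and against growth medium the fitted values of Saa1 and Saa2 rest on at most 2 counts in a growth medium library.

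The members did not move by 1 common factor. Within a library, the ratio of Saa3 to Hp counts was 2.78, 3.24 and 2.85 in shBrca2-CM, 1.97, 1.83 and 2.17 in shControl-CM and 2.05 and 2.69 in growth medium. The shBrca2-CM libraries thus had more Saa3 for each Hp read than any other library. The ratio of Saa3 to Lcn2 was 19.1, 15.7 and 15.9 in shBrca2-CM, 9.86, 9.42 and 11.5 in shControl-CM and 24.1 and 23.6 in growth medium, and its groups did not overlap. Against Cp the range was wider, with 65.7 to 102 Saa3 counts for each Cp count in shBrca2-CM, 314 to 425 in shControl-CM and 5.64 to 8.94 in growth medium. Ratios of counts from the same library do not depend on its depth or scaling.

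Within the groups, shBrca2-CM replicate 3 had the highest level for 7 of the 8 members, all but Cp, while it was highest for 32.5% of all genes considered. Growth medium replicate 1 was the higher of its pair for all 8 members, against 50.8% of all genes. With shControl-CM, replicate 3 was highest for 6 members and replicate 2 for Hp and Lcn2. Members of 1 library share its source, so these are not separate observations. Without shBrca2-CM replicate 3, the same 7 members were called lower.

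The genes whose levels followed Saa3 and Lcn2 most closely were sought among 6463 genes, as the smallest root mean square difference of log2 CPM over the 8 samples after the mean of each gene was removed. For Saa3 these were Hp (0.28), Lcn2 (0.44), Mmp3 (0.65), Mmp13 (0.90) and a, the agouti gene (1.05), where the median over all genes was 3.05. For Lcn2 they were Hp (0.37), Saa3 (0.44), Mmp3 (1.04), Mmp13 (1.24) and a (1.46), with a median of 3.42. Slpi ranked 8 and 7 in these lists and Cp 102 and 111, and the remaining members had too few reads to be ranked. Mmp3, a matrix metalloproteinase, was read at 813 ± 152 CPM in shBrca2-CM (SD, n = 3), 1271 ± 208 CPM in shControl-CM (SD, n = 3) and 13.7 CPM as a mean of both growth medium samples. Its log2 fold change from shControl-CM to shBrca2-CM was -0.62 (SE 0.16), against -0.95 (SE 0.41) for Mmp13, which had 2 and 1 counts in growth medium, and -0.61 (SE 0.18) for a. These genes were chosen for following Saa3 and Lcn2 over the same samples, so that their values are a description and carry no p-values.

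The other genes of the acute phase and of secreted defence were taken from lists of textbook members, written with some results of these data known. Of 25 further acute phase proteins, 12 were in the table. Of these, 1 was called higher and none lower between the conditioned media, with a median log2 fold change of -0.37. Lbp, which carries bacterial lipopolysaccharide to its receptor, was the one called (0.68, SE 0.17, adjusted p = 0.0760, edgeR), with 89.7, 102 and 92.3 CPM in shBrca2-CM and 53.8, 54.1 and 72.0 CPM in shControl-CM. The call of Lbp held in 8 of 16 alternatives, and was lost without shControl-CM replicate 2 (0.60) or any 1 shBrca2-CM replicate (0.71, 0.63 and 0.71). Against growth medium 8 were called higher and 1 lower in shControl-CM, and 8 higher and none lower in shBrca2-CM, with medians of 2.02 and 1.43.

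Serpina3n, a serine protease inhibitor related to antichymotrypsin, is an example of that second pattern. It was read at 767, 727 and 925 CPM in shBrca2-CM, 764, 1075 and 761 CPM in shControl-CM, against 117 and 124 CPM in growth medium. The conditioned media overlapped and both were above growth medium, by a log2 fold change of 2.84 (SE 0.21, adjusted p = 1.31e-05, edgeR) in shControl-CM and 2.75 (SE 0.15, adjusted p = 4.17e-23, edgeR) in shBrca2-CM. C3, the central complement component, rose by 1.99 (SE 0.22, adjusted p = 1.71e-04, edgeR) and 1.49 (SE 0.15, adjusted p = 1.82e-12, edgeR). Serpina3f, Serpina3g and Serpina3i also rose in both comparisons, though these genes are close paralogs of Serpina3n and could share reads. Cd14, a co-receptor for lipopolysaccharide, rose by 2.04 (adjusted p = 0.00177, edgeR) and 1.36 (adjusted p = 9.05e-09, edgeR). Lrg1, a leucine-rich acute phase glycoprotein, had 15, 14 and 21 counts in shControl-CM, 9, 7 and 7 in shBrca2-CM and 1 and 2 in growth medium.

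Of 28 further secreted antimicrobial proteins, 9 were in the table. Between the conditioned media 2 were called higher and 1 lower, and the median log2 fold change was -0.77 as fitted and 0.18 with 4 genes set at their bounds. Rarres2, which encodes chemerin, a chemoattractant with antibacterial activity, was read at 119, 153 and 204 CPM in shBrca2-CM, 520, 697 and 829 CPM in shControl-CM, against 25.9 and 26.9 CPM in growth medium. It fell by 2.06 on the log2 scale between the conditioned media (SE 0.21, adjusted p = 2.49e-04, edgeR) and rose by 4.68 and 2.61 against growth medium (adjusted p = 1.28e-06 and 1.25e-18, edgeR). The order of its groups was that of Saa3. Adm, the precursor of adrenomedullin, was higher in shBrca2-CM (2.52, SE 0.43, adjusted p = 0.00867, edgeR), with 17.4, 22.4 and 12.4 CPM in shBrca2-CM and 2.56, 2.90 and 3.40 CPM in shControl-CM (12, 18 and 14 counts against 4, 3 and 5), and 17.7 and 20.6 CPM in growth medium. The shControl-CM samples were thus the low ones, and Adm was called lower in shControl-CM than in growth medium (-2.69, adjusted p = 5.01e-04, edgeR) and was not called in shBrca2-CM (-0.17, adjusted p = 0.661, edgeR). Rnase4, a secreted ribonuclease, was also called higher (0.73, SE 0.17, adjusted p = 0.0561, edgeR), a call that held in 10 of 16 alternatives and was lost without any 1 shBrca2-CM replicate (0.73, 0.71 and 0.75). It shares its first exons with Ang, though reads from the 3′ end would fall mostly elsewhere. Against growth medium Rnase4 was called lower in shControl-CM (-1.003, adjusted p = 0.00300, edgeR) and was not called in shBrca2-CM (-0.29, adjusted p = 0.140, edgeR). Ang was called higher than in growth medium in both, by 0.93 and 1.10 (adjusted p = 0.0628 and 0.0125, edgeR). The second call was lost with all libraries thinned to the smallest total (0.76). The first call was lost in 8 of 15 alternatives, among them the leaving out of either growth medium sample (1.011 and 0.87) or of shControl-CM replicate 2 or 3 (1.011 and 0.72).

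The neutrophil protein gene S100a8 had 9, 8 and 14 counts in shControl-CM, 0 in each shBrca2-CM library and 3 and 1 in growth medium. Its adjusted p-value between the conditioned media was 0.0193 (edgeR), and its mean count was under the minimum of 5, so it was not called. Wfdc21 and Chil1, of the same list, were called higher in shControl-CM than in growth medium on 4 to 6 counts a library, and both were listed at 0 counts in growth medium. Both calls were lost in the joint fit of the 3 groups (6.01 and 6.10). With shControl-CM against growth medium 5 genes of this list were called higher and 2, Adm and Rnase4, lower of 9 tested, and in shBrca2-CM 2 higher and none lower of 6 tested.

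The cytokines that switch on acute phase genes, and their receptors, form a list of 22 genes, of which 15 were in the table. In shBrca2-CM against shControl-CM 2 were called lower and none higher. Il11, a cytokine that signals through the same gp130 subunit as interleukin 6, was read at 14.5, 14.9 and 24.0 CPM in shBrca2-CM, 176, 152 and 200 CPM in shControl-CM, against 2.78 and 1.505 CPM in growth medium. Its log2 fold change was -3.23 (SE 0.22, adjusted p = 1.05e-05, edgeR). Lif, another cytokine of that family, was read at 18.8, 26.1 and 27.5 CPM, 135, 94.7 and 86.3 CPM and 3.82 and 5.16 CPM in the same order, with a log2 fold change of -2.08 (SE 0.24, adjusted p = 5.89e-04, edgeR). Both calls held in 16 of 16 alternatives, and both genes stood in the order of Saa3, highest in shControl-CM and lowest in growth medium.

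Against growth medium 6 genes of the cytokine list were called higher and 1 lower in shControl-CM, and 8 higher and 1 lower in shBrca2-CM. Il11 rose by 6.29 (SE 0.29, adjusted p = 8.34e-07, edgeR) in shControl-CM and by 3.04 (SE 0.40, adjusted p = 6.66e-09, edgeR) in shBrca2-CM. Lif rose by 4.55 (SE 0.30, adjusted p = 5.68e-06, edgeR) and 2.46 (SE 0.33, adjusted p = 6.95e-09, edgeR). Il6 had 64, 25 and 10 counts in shControl-CM, 7, 4 and 6 in shBrca2-CM and 1 in each growth medium library, and was called against growth medium in both comparisons, though not in shBrca2-CM with all libraries thinned to the smallest total. Among the receptors, Il11ra1, which binds interleukin 11, was called lower in both (-0.81 and -0.67, adjusted p = 0.0191 and 4.10e-04, edgeR). In shControl-CM Il1r1 (0.93) and Il17ra (0.61), receptors of interleukin 1 and interleukin 17, were called higher (adjusted p = 0.0167 and 0.0283, edgeR). Without either growth medium sample the calls of Il1r1 (0.91 and 0.97) and Il17ra (0.55 and 0.69) were lost, and they were lost in 3 and 5 of 15 alternatives, that of Il17ra also without shControl-CM replicate 2 (0.52). The call of Il11ra1 in shControl-CM was lost without growth medium replicate 2 (-0.66). In shBrca2-CM Osmr (0.69) and Lifr (0.88), which pair with gp130, were called higher (adjusted p = 1.73e-04 and 0.00146, edgeR), the call of Osmr being lost in the joint fit of the 3 groups (0.69). Osmr was read at 166, 185 and 158 CPM in shBrca2-CM, 198, 206 and 27.2 CPM in shControl-CM, against 100.3 and 109.6 CPM in growth medium, so that the third shControl-CM sample stood apart, and it was not called in shControl-CM (0.44, SE 0.56).

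Of 16 transcription factors of the acute phase response, 14 were in the table. Here too 2 were called lower and none higher in shBrca2-CM than in shControl-CM. Cebpb, the C/EBP family member induced in inflammation, was read at 405, 462 and 470 CPM in shBrca2-CM, 659, 652 and 810 CPM in shControl-CM, against 231 and 233 CPM in growth medium, with a log2 fold change of -0.64 (SE 0.13, adjusted p = 0.0217, edgeR). Relb, an NF-kB subunit, was read at 98.4, 83.4 and 100.3 CPM, 122, 160 and 194 CPM and 53.4 and 65.8 CPM, with a log2 fold change of -0.72 (SE 0.18, adjusted p = 0.0730, edgeR). The calls held in 12 and 9 of 16 alternatives and were lost without any 1 shBrca2-CM replicate (-0.58 to -0.67 for Cebpb and -0.64 to -0.77 for Relb), that of Relb also without shControl-CM replicate 2 (-0.74), and both differences were smaller than those of the 7 members called lower. The C/EBP gene Cebpd went the other way and was not called (1.16, SE 0.37, adjusted p = 0.169, edgeR). It was read at 13.0, 17.4 and 15.1 CPM in shBrca2-CM and 5.13, 6.76 and 8.83 CPM in shControl-CM, on 7 to 17 counts a library.

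Against growth medium 8 of the 14 factors were called higher and none lower in each comparison. Cebpb rose by 1.60 (SE 0.16, adjusted p = 1.09e-04, edgeR) in shControl-CM and 0.95 (SE 0.14, adjusted p = 1.51e-07, edgeR) in shBrca2-CM. Bcl3, a partner of NF-kB in the nucleus, rose by 2.67 (SE 0.21, adjusted p = 2.03e-05, edgeR) and 2.31 (SE 0.19, adjusted p = 5.58e-16, edgeR), and Rela, an NF-kB subunit, by 1.47 (SE 0.17, adjusted p = 2.22e-04, edgeR) and 1.27 (SE 0.15, adjusted p = 2.25e-10, edgeR). Nfkbiz, an inducible nuclear cofactor of NF-kB, rose by 1.78 in each (adjusted p = 0.0186 and 4.20e-09, edgeR), with its 3 shControl-CM samples spread from 25.1 to 87.8 CPM. In shControl-CM its value was 0.99 without shControl-CM replicate 1, and the call was lost without either growth medium sample (2.10 and 1.53). Sp1, a general promoter-binding factor, rose by 2.28 and 2.09 (adjusted p = 4.49e-04 and 2.32e-08, edgeR), Relb by 1.41 and 0.67 (adjusted p = 0.00120 and 0.00117, edgeR) and Cebpd, another C/EBP gene, by 1.51 and 2.65 (adjusted p = 0.0335 and 3.56e-07, edgeR). The call of Cebpd in shControl-CM was lost in 4 of 14 alternatives, among them the leaving out of either growth medium sample (1.98 and 1.198).

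Receptors and binding partners of the members, 19 genes of which 12 were in the table, showed no call by edgeR between the conditioned media among 11 tested, and none by DESeq2, with 3 genes at an unadjusted p under 0.05 and a median log2 fold change of -0.08. Against growth medium 5 were called higher and 1 lower in shControl-CM and 5 higher and 2 lower in shBrca2-CM. Egfr, the receptor of epidermal growth factor, rose by 1.74 (SE 0.28, adjusted p = 0.00137, edgeR) and 1.46 (SE 0.27, adjusted p = 1.20e-05, edgeR, and 0.98 with all libraries thinned to the smallest total). P2rx7, an ATP-gated channel, rose by 0.70 and 0.59 (adjusted p = 0.0128 and 0.00615, edgeR), and each call was lost in 3 of 15 alternatives, among them without growth medium replicate 1 (0.69) and without shBrca2-CM replicate 1 (0.47). Scarb1, a lipoprotein receptor, rose by 0.59 in shControl-CM (adjusted p = 0.0223, edgeR), and Tlr4, the lipopolysaccharide receptor, by 1.41 in shBrca2-CM (adjusted p = 0.00642, edgeR). The call of Scarb1 was lost in 6 of 15 alternatives, among them without shControl-CM replicate 3 (0.49) or either growth medium sample (0.60 and 0.59). That of Tlr4 was lost in 3 of 15, among them without shBrca2-CM replicate 2 (0.99), and its value was 2.21 without growth medium replicate 1. Slc22a17, a lipocalin 2 receptor, rose by 0.79 (SE 0.27, adjusted p = 0.0443, edgeR) and 1.22 (SE 0.24, adjusted p = 3.07e-05, edgeR). With all libraries thinned to the smallest total these values were 0.07 and 0.31 and neither was called, and the first call was lost in 4 of 15 alternatives, among them without either growth medium sample (0.99 and 0.63). Ager, a receptor of S100 proteins and serum amyloid A, rose by 1.41 (SE 0.34, adjusted p = 0.0120, edgeR) and 2.02 (SE 0.32, adjusted p = 6.68e-07, edgeR), values that were 0.81 and 1.30 with thinning, and its first call was lost with thinning and without either growth medium sample (1.36 and 1.48). Mmp9, which forms a complex with lipocalin 2, was called lower in shBrca2-CM in 15 of 15 alternatives (-1.97, SE 0.42, adjusted p = 1.31e-04, edgeR, and -1.31 with thinning). In shControl-CM it was called lower (-0.79, SE 0.31, adjusted p = 0.0778, edgeR), a call lost in 7 of 15 alternatives, among them without either growth medium sample (-0.67 and -0.90) or shControl-CM replicate 2 (-0.63).

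**Figure D5:**
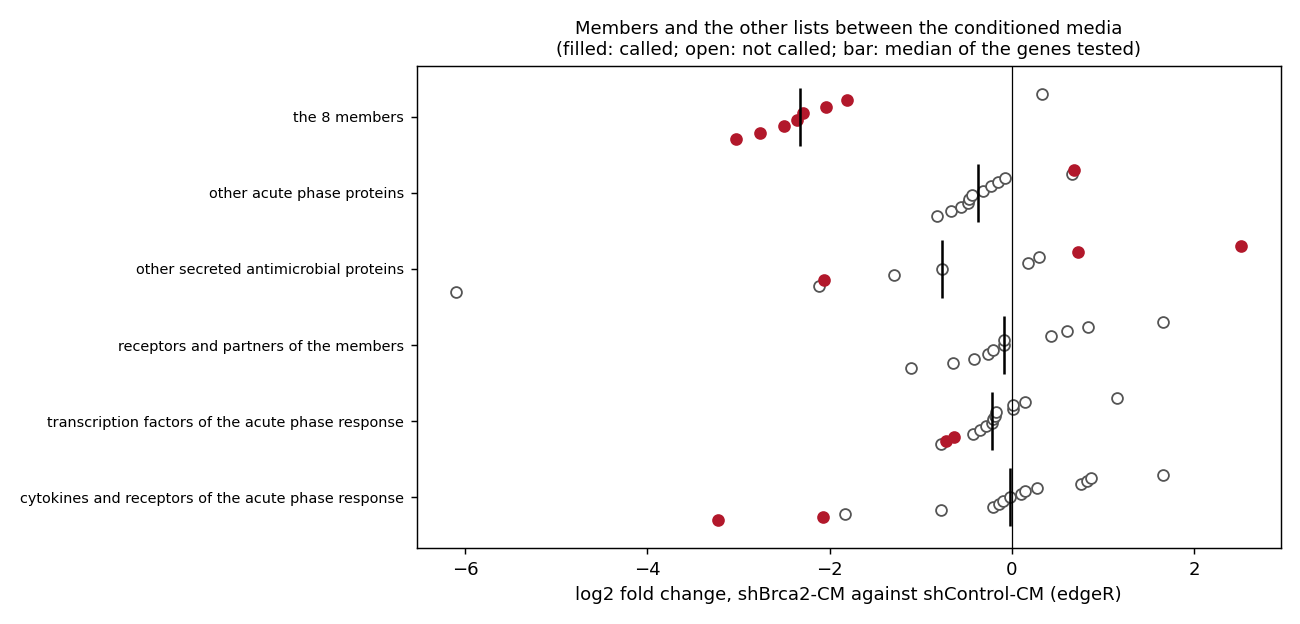
Log2 fold change in shBrca2-CM against shControl-CM of every gene tested among the 8 members and the 5 other lists. Filled points were called, open points were not, and the bar is the list's median, which lies at -2.33 for the members and between -0.77 and -0.02 as fitted for the other lists. The median of -0.77, that of the antimicrobial proteins, is 0.18 with 4 genes set at their bounds.

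The genes next to the members on the chromosome were also compared, with 25 genes of the table taken as the 2 nearest on each side and those within the Saa cluster. Between the conditioned media none was called higher and 1 lower, 1110008P14Rik beside Lcn2 (-0.56, SE 0.12, adjusted p = 0.0378, edgeR), and their median log2 fold change was -0.05. Saa4, which lies inside the Saa cluster and encodes a constitutive serum amyloid A, had 2, 2 and 8 counts in shBrca2-CM, 13, 13 and 6 in shControl-CM and 1 and 0 in growth medium. The conditioned media overlapped for Saa4 (adjusted p = 0.609, edgeR). Against growth medium Saa4 was called higher in shControl-CM (5.85, adjusted p = 0.00100, edgeR), a call lost with thinning (3.13). In shBrca2-CM its log2 fold change was 4.99 (adjusted p = 9.28e-05, edgeR), and it missed the minimum mean count, at 4.45. Saa4 is also counted among the further acute phase proteins. Against growth medium 8 of the 25 neighbours were called higher and 4 lower in shControl-CM, and 5 higher and 3 lower in shBrca2-CM. Of all genes, 18.2% were called higher and 18.9% lower in shControl-CM, and 18.6% higher and 19.2% lower in shBrca2-CM.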

How the data were processed

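RNA of PSCs was measured in 8 samples of 3 groups, taken from the recorded treatment and the sample titles. Raw read counts of 12160 genes were deposited by the authors, and replicates were not pooled. The submitters' processing notes name bcl2fastq, cutadapt, STAR 2.4.2a, HTSeq, DESeq2 and mm10; the handling of molecular identifiers, the annotation and the choice of the 12160 genes are not given in the sources used here. In the table, 1 column, headed as a further DMEM library, matched no sample in the labels used here and was not used. 

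Counts were analysed in R 4.3.3 with edgeR 4.0.16. Each pair of groups was fitted alone (quasi-likelihood test, TMM factors, a minimum of 10 counts summed over its samples, Benjamini-Hochberg adjustment over all genes tested). A gene was called where the adjusted p-value was below 0.1, the log2 fold change exceeded 0.5 in size and the mean normalised count exceeded 5, thresholds taken from the study's methods. CPM were scaled by TMM over all 8 libraries, and log2 CPM had a prior count of 2. A group with 3 or fewer counts in every library was taken as at the floor, and ratios against it were given with exact 95% intervals of the counts. The test was tried on simulated counts.

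The members and the lists were chosen with earlier results of these data known. Named were the 8 members, up to 6 genes called with the lowest adjusted p-value per list and comparison, the 5 genes nearest Saa3 and the 5 nearest Lcn2, and neighbours called between the conditioned media or lying inside the Saa cluster. Il6, S100a8, Lrg1, Wfdc21 and Chil1 are given by their counts because a group was near 0, and single cell type markers were named after their values were seen. Promoters were searched with Python 3.11.15, and transcripts of Saa1, Saa2 and Saa3 were aligned with Biopython 1.88. Alternatives were DESeq2 1.42.0, other scalings, other filters, a joint fit of the 3 groups, stricter thresholds, libraries thinned to the smallest total, a replicate block, and leaving out each replicate.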

Additional observations from a re-analysis of the deposited data

How the results depend on the processing

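Of 363 values of the members under the alternatives, 356 kept their direction and their side of the threshold, 5 were no longer called, 2 became called, and none reversed. The 5 were all Saa2 between the conditioned media, where its log2 fold change ranged from -3.68 to -1.94 over all 16 alternatives. The 2 were Saa2 in the joint fit and Camp without growth medium replicate 1, both in shBrca2-CM against growth medium, where Camp ranged from 0.02 to 1.71. The members called lower between the conditioned media numbered 6 or 7, and those called higher against growth medium 8 in shControl-CM and 6 or 7 in shBrca2-CM. Low counts limit Saa2, Camp and, in growth medium, Saa1, and the shBrca2-CM libraries were the shallowest. The alternatives for the other lists were chosen after seeing the data.

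Same-numbered samples of the conditioned media did not deviate together in every pair (correlations -0.07, 0.04 and 0.19), so the numbers were not taken as pairs. With a replicate block 311 genes were called between the conditioned media in place of 345, 7 members were called lower as before, and the further acute phase proteins called higher were 0 in place of 1. Of the 3 shBrca2-CM samples, 1 correlated best with its own number.

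Under an adjusted p-value of 0.05 and a log2 fold change over 1, 130 genes were called between the conditioned media, 2375 in shControl-CM and 2185 in shBrca2-CM against growth medium. Thinning left 2934 in shControl-CM. Without 1 replicate the counts were 128 (without shBrca2-CM replicate 2) to 976 (without shControl-CM replicate 1), 1901 (without growth medium replicate 1) to 5157 (without shControl-CM replicate 1), and 3903 to 4510. The cause of these shifts was not tested.

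In shBrca2-CM against shControl-CM, the call of the further acute phase proteins (1 higher) was 0 with DESeq2, stricter thresholds and thinning, and without 1 replicate 0 to 1 higher and 0 to 1 lower. Further antimicrobial proteins called higher were 1 in place of 2 with these same 3 settings, and without 1 replicate 1 to 2 higher and 1 to 2 lower. Transcription factors called lower were 1 with total counts, 0 with stricter thresholds and 1 with thinning (which also called 1 higher), and without 1 replicate 0 to 3 lower and 0 to 1 higher. Without 1 replicate the cytokine list had 0 to 4 higher and 2 to 4 lower, and the receptors 0 to 1 in each direction.

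With shControl-CM against growth medium, antimicrobial proteins called higher were 3 with edgeR's expression filter, 2 in the joint fit, 1 with thinning and 3 to 5 without 1 replicate. The acute phase protein called lower was 0 with stricter thresholds and thinning and 0 to 1 without 1 replicate. Receptors called higher were 2 with stricter thresholds and 2 with thinning, and those called lower were 0 with DESeq2, stricter thresholds and thinning and 2 with total counts (without 1 replicate 1 to 5 higher and 0 to 4 lower). Cytokine genes were 3 higher and 0 lower with stricter thresholds, and 3 to 7 higher and 0 to 3 lower without 1 replicate. Transcription factors called higher were 5 to 9 without 1 replicate. With shBrca2-CM against growth medium, cytokine genes called higher were 5 in the joint fit and 4 with stricter thresholds, which left 0 lower and 5 transcription factors higher. Thinning left there 1 antimicrobial protein higher and, of the receptors, 2 higher and 1 lower.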
